A study of Homo sapiens with 16 samples.

Results

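Interferon-stimulated genes were followed in LNCaP cells, an androgen-responsive line grown from a prostate cancer metastasis, that either lacked or kept the tumour suppressors RB and p53. The 42 genes were chosen by name as well-known members of this class, and each was matched to its row of the count tables by Ensembl gene ID. All 42 of the 60676 gene IDs were found, and all 42 were among the 21810 genes abundant enough to be tested. RNA was sequenced from RB-p53 double knockout cells given 50 µM enzalutamide, an androgen receptor antagonist, for 6 days (DKO EZ) and from the same cells given DMSO, the solvent, for 6 days (DKO DMSO). The corresponding wild-type groups were WT EZ and WT DMSO, and each of the 4 groups held 4 replicate libraries. The knockout was made with CRISPR-Cas9, and the labels do not say whether the DKO cells were 1 clone or a pool, or whether replicates were separate cultures.

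Type I and type III interferons bind receptors on the cell surface, whose Janus kinases phosphorylate STAT proteins, STAT2 among them. Together with IRF9 they form a complex that binds interferon-stimulated response elements, repeats of GAAA, beside the genes it switches on. The products detect viral RNA, block translation, viral entry and release, and tune the pathway itself. Many of them are also expressed at a basal level in tumour cell lines that have not been given interferon, and LNCaP cells are known as poor responders to added interferon.

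Promoters of 5 of the genes are shown because they cover the outcomes described below, with the response element in capitals. The motif searched was GAAA, any 2 bases and GAAA again, on either strand (on the minus strand it reads as a pair of TTTC), in the 300 bases from 250 before to 50 after each RefSeq transcription start on GRCh38.p14. IFIT1, ISG15 and IFITM1 were lower in DKO, HERC5 did not pass the test, and PARP14 was higher in DKO. Each sequence runs 5′ to 3′ on the strand of its gene, which is the plus strand for all 5, and neighbouring matches in ISG15 and HERC5 overlap.
IFIT1 (chr10:89392373-89392672): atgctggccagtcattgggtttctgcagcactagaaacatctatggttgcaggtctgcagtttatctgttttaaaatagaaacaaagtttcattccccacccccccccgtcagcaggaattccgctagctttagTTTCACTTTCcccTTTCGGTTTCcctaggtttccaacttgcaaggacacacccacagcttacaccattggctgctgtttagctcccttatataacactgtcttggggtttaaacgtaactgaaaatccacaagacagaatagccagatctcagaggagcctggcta
ISG15 (chr1:1013247-1013546): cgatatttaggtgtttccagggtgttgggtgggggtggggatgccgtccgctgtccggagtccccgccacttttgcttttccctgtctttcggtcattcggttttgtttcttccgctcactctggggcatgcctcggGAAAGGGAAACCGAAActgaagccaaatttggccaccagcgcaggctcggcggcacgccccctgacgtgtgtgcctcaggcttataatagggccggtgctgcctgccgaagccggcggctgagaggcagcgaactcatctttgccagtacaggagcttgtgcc
IFITM1 (chr11:313790-314089): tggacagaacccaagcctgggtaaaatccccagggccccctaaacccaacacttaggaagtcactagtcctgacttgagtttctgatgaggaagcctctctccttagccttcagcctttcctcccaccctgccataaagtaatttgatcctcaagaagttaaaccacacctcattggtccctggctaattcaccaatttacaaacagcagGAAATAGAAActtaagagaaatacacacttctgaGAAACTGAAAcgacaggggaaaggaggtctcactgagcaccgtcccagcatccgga
HERC5 (chr4:88456869-88457168): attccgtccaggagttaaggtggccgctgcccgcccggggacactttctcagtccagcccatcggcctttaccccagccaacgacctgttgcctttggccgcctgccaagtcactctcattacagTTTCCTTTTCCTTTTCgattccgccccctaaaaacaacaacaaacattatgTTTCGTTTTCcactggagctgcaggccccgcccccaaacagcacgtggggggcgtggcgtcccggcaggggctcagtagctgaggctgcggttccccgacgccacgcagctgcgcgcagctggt
PARP14 (chr3:122680589-122680888): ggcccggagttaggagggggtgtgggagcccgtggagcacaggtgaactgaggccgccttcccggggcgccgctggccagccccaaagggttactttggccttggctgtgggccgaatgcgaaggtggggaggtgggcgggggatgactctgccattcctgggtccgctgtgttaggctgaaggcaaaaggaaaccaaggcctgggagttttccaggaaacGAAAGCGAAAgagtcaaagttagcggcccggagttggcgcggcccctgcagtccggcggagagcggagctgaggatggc
The windows held 2 matches each in IFIT1, ISG15 and IFITM1, 3 in HERC5 and 1 in PARP14. A window was found in RefSeq for 35 of the 42 genes, and 25 of these (71.4%) held the motif, against 4.38% of 27305 gene symbols with a window. More than 1 match was found in 14 of the 35, against 0.311% of all symbols. Among genes lower in DKO in DMSO 17 of 24 with a window held the motif, and among those that did not pass 7 of 10 did.

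The libraries held 11823438 to 47678648 counts. RB1 stood at 9.04 to 13.4 CPM, counts scaled to library size, in the 8 DKO libraries and 95.6 to 128 CPM in the 8 WT libraries, so by RB1 no library went against its genotype label. A group of 6 libraries stood apart by a high share of RN7SL1, the RNA of the signal recognition particle. Replicates 1 and 2 of both DKO groups and replicate 1 of both WT groups had 0.220% to 0.621% of their counts in it, against 0.0481% to 0.117% in the other 10. Of 8 luminal prostate markers all were tested, with summed levels of 1999 to 2605 CPM in DKO and 3164 to 4354 CPM in WT. Of 9 leukocyte markers CD3E was at 0 in every library, 1 (HLA-DRA) was abundant enough to test, and the summed level was 3.26 to 11.7 CPM in DKO and 0.836 to 4.62 CPM in WT. Of 5 fibroblast markers 2 were tested, COL1A1 and LUM, with summed levels of 23.3 to 49.8 CPM in DKO and 14.2 to 21.5 CPM in WT. The fibroblast sums of all DKO libraries exceeded those of all WT libraries, the luminal sums all lay below them, and the leukocyte sums overlapped. Their part in any result was not tested.

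Interferon-stimulated genes were expressed in 6 of the 8 WT libraries at levels far above those in DKO. The mean of the 42 genes was 2.53, 2.77, 2.86 and 3.17 log2 CPM in replicates 1 to 4 of DKO EZ and 2.50, 2.48, 2.55 and 3.05 in DKO DMSO. In WT EZ it was 2.58, 5.74, 5.61 and 6.33 log2 CPM and in WT DMSO 3.33, 4.80, 5.12 and 6.57. The 2 WT libraries numbered 1 thus lay within or just above the DKO range, while WT replicates 2 to 4 lay above every DKO library. Over all tested genes the mean was 2.59 to 2.87 log2 CPM in every library. In these bulk samples a smaller share of expressing cells and less RNA per cell cannot be told apart.

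**Figure D1:**
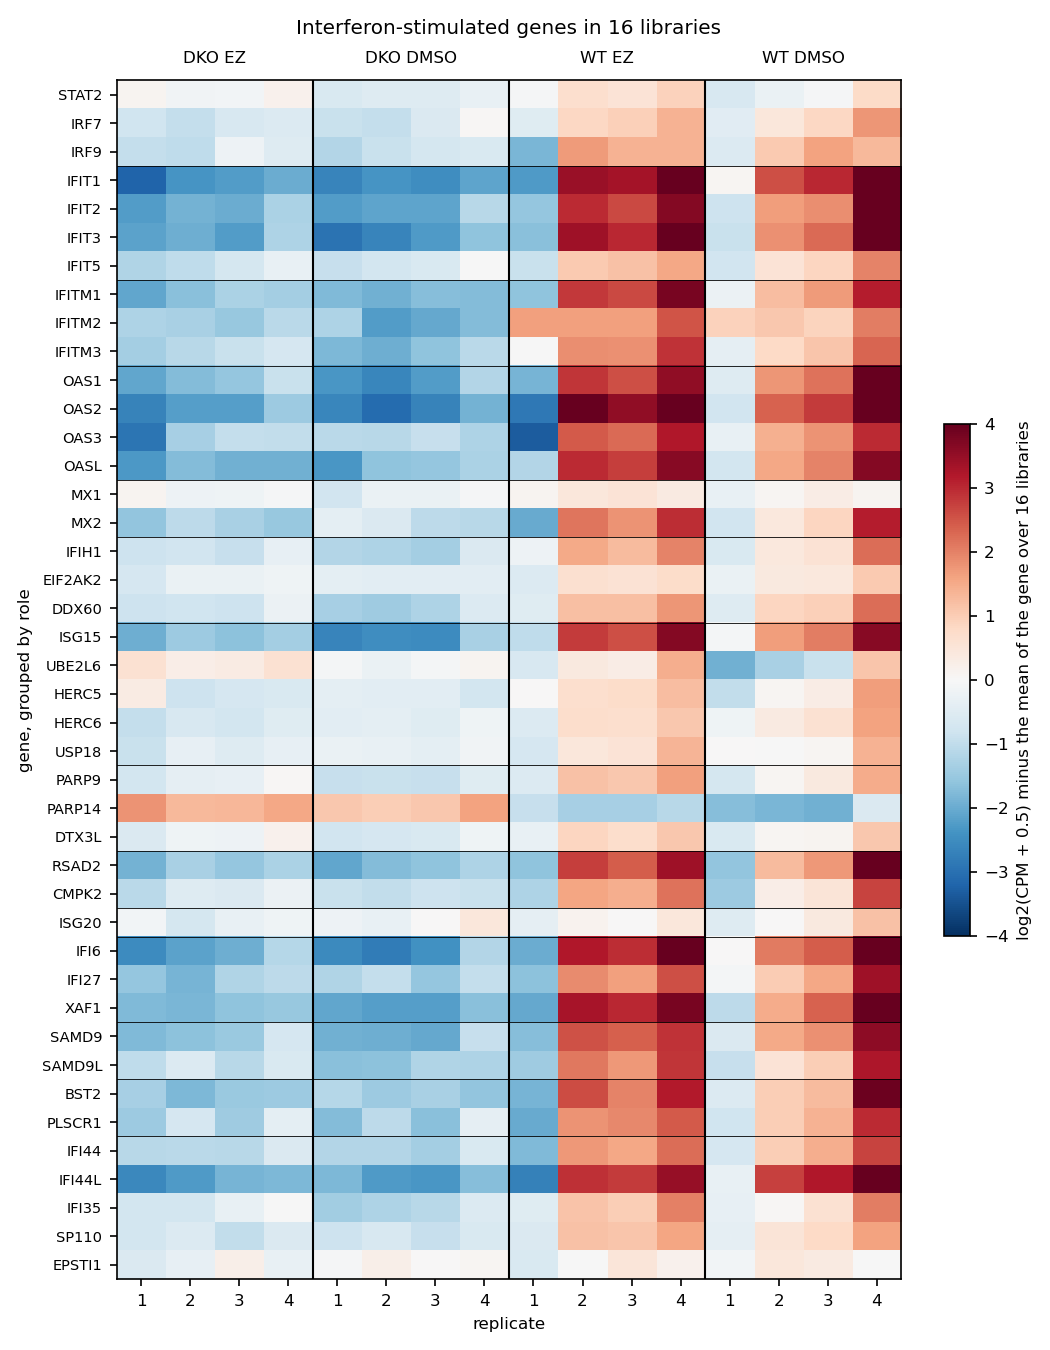
Levels of the 42 interferon-stimulated genes (rows, grouped by role) in the 16 libraries (columns, 4 replicates of each group), as log2(CPM + 0.5) minus the mean of the gene over the 16 libraries. WT replicates 2 to 4 are red for nearly all genes, and WT replicates 1 are pale or blue like DKO for most. IFITM2 stays near its level in the other WT libraries there, and PARP14 runs the other way.

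The comparison of DKO with WT asks what loss of RB and p53 changes, under the drug and in DMSO. In EZ 33 of the 42 genes fell in DKO, against 11.4% of all tested genes, and 1, PARP14, rose, against 9.29% (edgeR quasi-likelihood test over all 16 libraries, adjusted p under 0.05). In DMSO 29 fell, against 9.70%, and PARP14 again was the 1 that rose, against 8.91%. The median log2 fold change of the 42 was −2.65 in EZ and −2.77 in DMSO, beside −0.01 and −0.06 over all genes. All 29 genes that fell in DMSO also fell in EZ, where they made up 87.9% of the list. The comparisons use different libraries but share 1 estimate of the spread, and EZ and DMSO libraries of one number deviated together, so they are not independent. IFIT5, MX2, USP18 and PARP9 passed in EZ alone, and CMPK2, DTX3L, EPSTI1, HERC5, ISG20, MX1, STAT2 and UBE2L6 in neither treatment. The interaction of genotype and drug was past the threshold for 0 of the 42 genes (0.00% of all genes, 0 of the 42 at an unadjusted p under 0.05, and 0 by DESeq2).

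**Figure D2:**
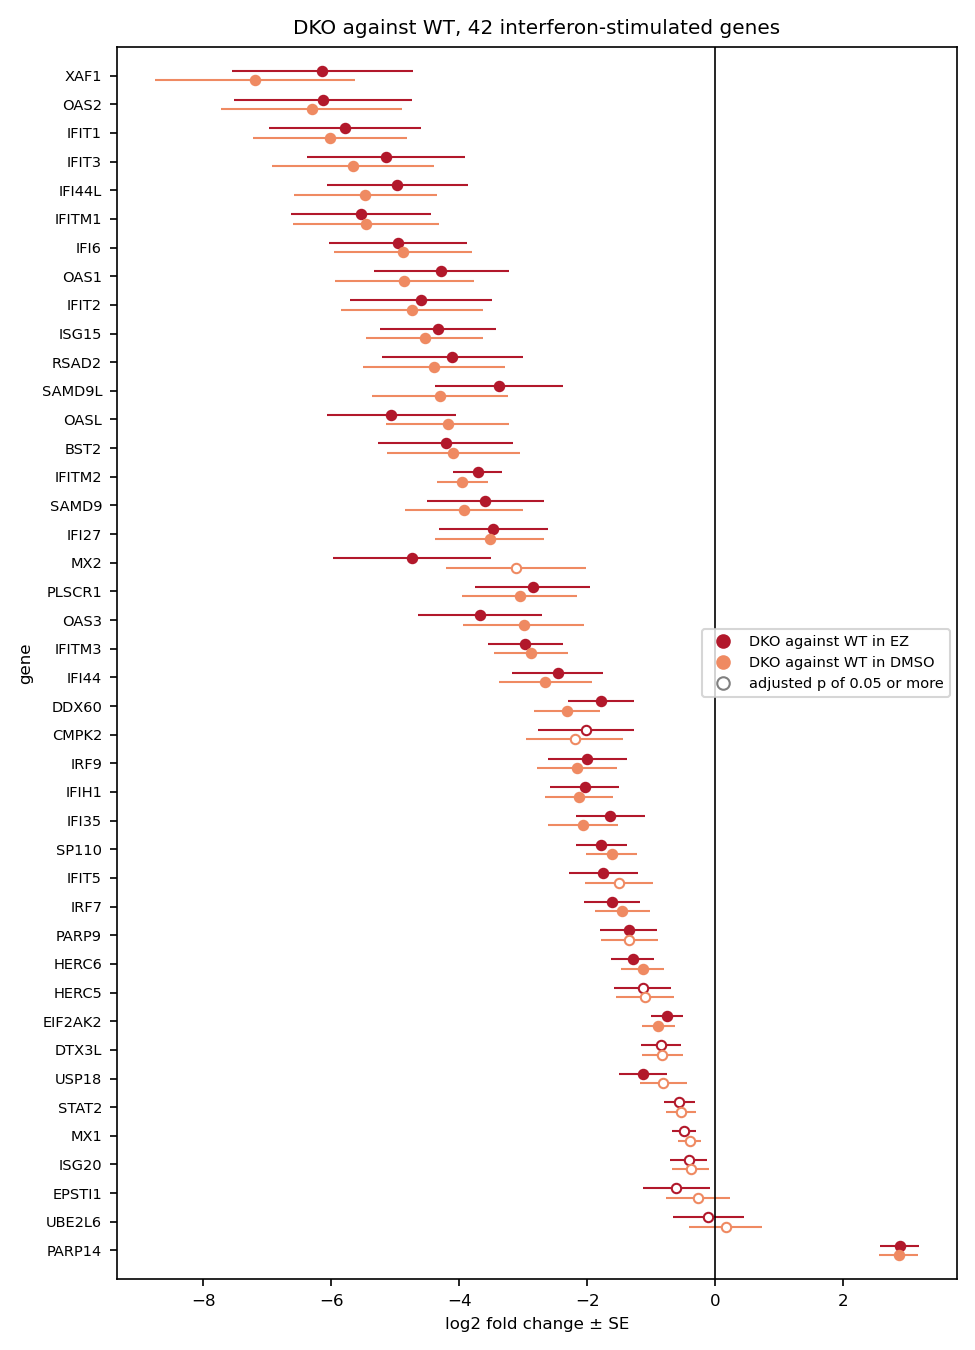
Log2 fold change of DKO against WT for each of the 42 genes (points) with its SE (bars), in EZ and in DMSO; filled points passed the edgeR test. XAF1 lies lowest in DMSO at −7.20 and PARP14 is the filled point right of 0, at 2.89 in EZ and 2.87 in DMSO.

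The libraries of the genotypes separated for fewer genes than passed the test. In EZ every DKO library lay below every WT library for 7 of the 42 genes, against 13.4% of all genes, which were IFIH1, IFITM2, IFITM3, IRF7, ISG15, MX1 and OASL. In DMSO this held for 25, against 10.9%. PARP14 was the 1 gene with every DKO library above every WT library, against 10.6% of all genes in EZ and 10.8% in DMSO. WT EZ replicate 1 lay below every DKO EZ library for 14 of the 42 genes (29.4% of all genes), within their range for 21 (41.6%) and above it for the other 7. WT DMSO replicate 1 lay above every DKO DMSO library for 25 genes, against 27.5% of all genes, within their range for 10 (44.5%) and below it for 7 (28.0%). The WT libraries numbered 1 are singled out here for their low values of these same genes, so the counts without them only describe the other libraries. Without them the libraries separated for 39 genes lower in DKO in EZ (16.9%) and 38 in DMSO (13.5%), and the edgeR test called 38 lower in EZ (8.59%) and 36 in DMSO (7.26%), with PARP14 alone higher (8.29% in EZ and 9.19% in DMSO). ISG20, EPSTI1 and UBE2L6 then did not pass in either treatment, and MX1 and USP18 did not pass in DMSO.

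Among the 10 libraries with a low RN7SL1 share, WT replicates 2 to 4 and DKO replicates 3 and 4, 31 genes fell in EZ (4.02% of all genes) and 32 in DMSO (3.93%). Among the 6 with a high share, where the 2 WT libraries are those numbered 1, most genes did not pass, in a fit added after the values were seen that takes each lone WT library to vary like the DKO groups. In EZ IFITM2 and IFITM3 fell (2.74% of all genes) and PARP14 rose (1.07%), with a median log2 fold change of −0.02 for the 42 genes and 0.12 for all genes. In DMSO IFIT1, IFIT2, IFIT3, IFI6, IFITM3, ISG15, OAS1 and SAMD9 fell (0.903%) and PARP14 and UBE2L6 rose (0.789%), with medians of −0.64 and 0.05. The high-share set holds 1 WT library per treatment, the one singled out above for its low values of these same genes. The low-share set leaves both of them out. The outcomes of the 2 sets thus follow from which libraries they hold. A part of the RN7SL1 share in the genotype difference cannot be told apart from that.

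Some calls were lost when a single library was left out, of either genotype. Without any 1 DKO EZ library the calls in EZ went from 34 (20.7% of all genes) to between 21 and 23 (15.4% to 17.1%). Without any 1 of DKO DMSO replicates 1 to 3 those in DMSO went from 30 (18.6%) to 21 or 22 (13.1% to 14.2%). Without WT EZ replicate 4 the edgeR calls of EIF2AK2, IFI35, PARP9, USP18, PLSCR1 and IFIT5 in EZ were lost, among others, with adjusted p of 0.111 to 0.215. Without WT DMSO replicate 4 those of OAS3, HERC6, IRF7, PLSCR1, EIF2AK2, IFI44, IFI35, BST2, RSAD2 and IFIH1 in DMSO were lost, among others. For the genes named, the edgeR test then gave adjusted p of 0.054 to 0.145.

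**Figure D3:**
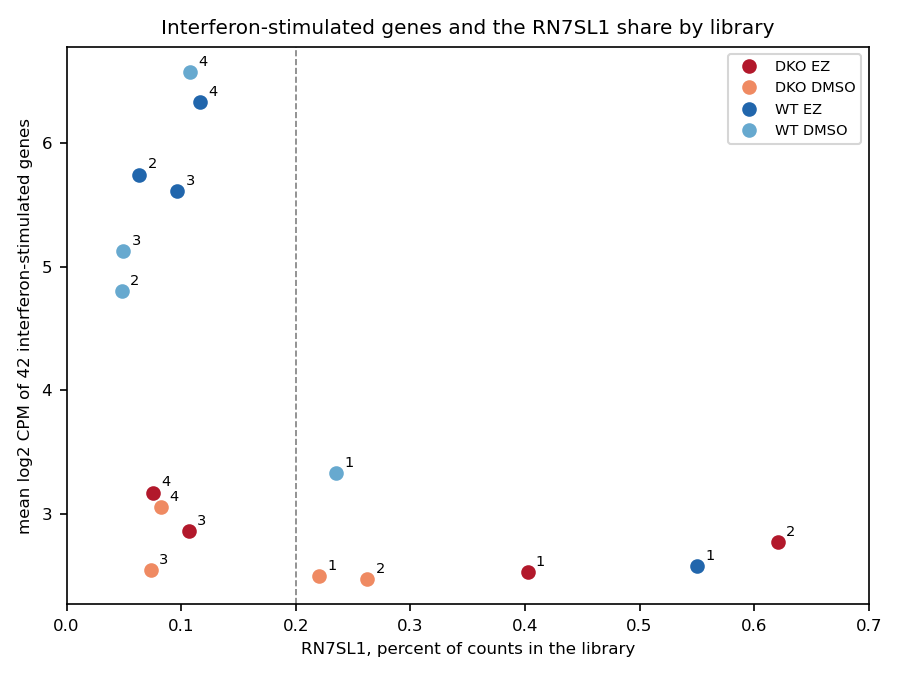
Mean log2 CPM of the 42 genes against the share of counts in RN7SL1 for each library (points, numbered by replicate); the dashed line at 0.2% parts the 6 libraries with a high share. Within the low-share libraries WT lies at 4.80 to 6.57 and DKO at 2.55 to 3.17, while both WT libraries with a high share lie at 2.58 and 3.33.

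Of the transcription factor genes, IRF9 and IRF7 fell and STAT2 did not pass. STAT2 (chromosome 12, 56341597 to 56360155, minus strand), a subunit of the complex that IRF9 joins, had 173, 145, 150.1 and 180.1 CPM in DKO EZ and 105, 111, 111 and 131 CPM in DKO DMSO, against 155, 258, 237 and 304 CPM in WT EZ and 103, 133, 154 and 271 CPM in WT DMSO. The genotypes overlapped in both treatments, every DKO EZ library lay above every DKO DMSO library, and the genotype difference did not pass in EZ (−0.56 ± 0.24 on the log2 scale, adjusted p = 0.116) or in DMSO (−0.53 ± 0.24, adjusted p = 0.144). IRF9 (chromosome 14, 24161053 to 24166565, plus strand), which gives the complex its sequence specificity, had 1.44, 1.34, 2.71 and 2.08 CPM in DKO EZ and 1.14, 1.49, 1.8 and 1.91 CPM in DKO DMSO, against 0.554, 11.6, 9.31 and 9.3 CPM in WT EZ and 2.04, 7.14, 10.8 and 8.6 CPM in WT DMSO. It fell (log2 −1.995 ± 0.62 in EZ and −2.16 ± 0.62 in DMSO), and the lowest of all 16 values was in WT EZ replicate 1. Of its 50-base words 43.6% also occur in other annotated transcripts, mainly AL136295.5, which overlaps it on the same strand. IRF7, which drives transcription of the interferon genes, fell (log2 −1.61 ± 0.44 in EZ and −1.45 ± 0.43 in DMSO). The 2 calls of IRF9 and of IRF7 were lost without single libraries (adjusted p up to 0.134).

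The IFIT proteins bind foreign RNA at its end and block its translation, and 3 of the 4 genes of this chromosome 10 cluster were among the most abundant in WT. IFIT1 (chromosome 10, 89392546 to 89406486, plus strand) had 3.89, 7.34, 8.03 and 9.64 CPM in DKO EZ and 5.97, 7.26, 6.71 and 8.73 CPM in DKO DMSO, against 7.92, 436, 404 and 766 CPM in WT EZ and 41.7, 242, 324 and 1259 CPM in WT DMSO. WT replicates 2 to 4 lay at 242 CPM or more and every other library at 41.7 CPM or less, with WT EZ replicate 1 inside the DKO range. IFIT1 averaged 7.22 ± 2.42 CPM in DKO EZ and 403 ± 310.3 CPM in WT EZ, and 7.17 ± 1.17 CPM in DKO DMSO and 467 ± 541 CPM in WT DMSO (SD, n = 4 each). Its log2 fold change was −5.78 ± 1.19 (adjusted p = 0.00356) in EZ and −6.02 ± 1.20 (adjusted p = 0.00317) in DMSO by edgeR.

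IFIT2 (chromosome 10, 89283694 to 89309276, plus strand) had 12.2, 15.5, 14.4 and 24.2 CPM in DKO EZ and 12.1, 13.2, 13.1 and 26.7 CPM in DKO DMSO, against 19.9, 464, 369.7 and 753 CPM in WT EZ and 32.4, 186, 211 and 1316 CPM in WT DMSO. IFIT3 (chromosome 10, 89327894 to 89340971, plus strand), which binds IFIT1 and stabilises it, had 4.61, 5.29, 4.25 and 9.06 CPM in DKO EZ and 2.37, 3.06, 4.15 and 6.78 CPM in DKO DMSO, against 6.43, 234, 180.2 and 411 CPM in WT EZ and 11.5, 79, 107 and 646 CPM in WT DMSO. WT DMSO replicate 4 was the highest library of both genes, and WT EZ replicate 1 was above 3 of the 4 DKO EZ libraries for each. IFIT2 fell (log2 −4.59 ± 1.11 in EZ and −4.74 ± 1.12 in DMSO), as did IFIT3 (−5.14 ± 1.24 and −5.66 ± 1.27). IFIT5 was higher in DKO than its relatives and spanned less, with 18.7 to 44.2 CPM in DKO and 23.7 to 177 CPM in WT, and it passed in EZ alone (−1.75 ± 0.54, adjusted p = 0.0332, against −1.50 ± 0.53, adjusted p = 0.0655 in DMSO).

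The oligoadenylate synthetases sense double-stranded RNA and make the second messenger that activates RNase L. OAS2 (chromosome 12, 112978395 to 113011723, plus strand) had 1.02, 1.58, 1.59 and 3.04 CPM in DKO EZ and 1.09, 0.637, 1.01 and 2.09 CPM in DKO DMSO, against 0.831, 155, 112 and 270.3 CPM in WT EZ and 5.17, 48.4, 65.9 and 282 CPM in WT DMSO. The spread within WT was 339-fold, from WT EZ replicate 1, which lay below every DKO EZ library, to WT DMSO replicate 4. OAS2 changed by −6.13 ± 1.39 (adjusted p = 0.00663) in EZ and −6.31 ± 1.42 (adjusted p = 0.00671) in DMSO, second in size to XAF1.

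OAS1 (chromosome 12, 112906777 to 112933222, plus strand), of the same cluster, had 2.33, 3.08, 3.63 and 5.91 CPM in DKO EZ and 1.88, 1.44, 2.02 and 4.75 CPM in DKO DMSO, against 2.77, 85.8, 70.3 and 140.2 CPM in WT EZ and 7.94, 40.1, 53.9 and 201 CPM in WT DMSO. OAS3, the third gene of the chromosome 12 cluster and the most abundant per length of the family, had 9.04, 28.6, 37 and 36.4 CPM in DKO EZ and 33.8, 33.1, 38.1 and 30.1 CPM in DKO DMSO, against 6.71, 400.4, 351 and 668 CPM in WT EZ and 58, 196, 249 and 571 CPM in WT DMSO. For OAS3 the lowest WT library, at 6.71 CPM, lay under every DKO library, while the other WT libraries lay at 58.0 CPM or more. OAS1 changed by −4.28 in EZ and −4.86 in DMSO, and OAS3 by −3.67 and −2.99. The OAS3 call in DMSO was lost in 14 of the 16 fits that left out a single library, with an adjusted p of up to 0.145 without WT DMSO replicate 4. OASL, a relative without synthetase activity that acts with the RIG-I sensor, had 1.5, 2.44, 2.1 and 2.1 CPM in DKO EZ and 1.48, 2.72, 2.89 and 3.62 CPM in DKO DMSO, against 3.88, 77.1, 66.7 and 124 CPM in WT EZ and 5.49, 28.5, 38.4 and 125 CPM in WT DMSO. Its groups did not overlap in either treatment, and it fell (log2 −5.06 ± 1.01 in EZ and −4.18 ± 0.96 in DMSO).

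The IFITM proteins sit in membranes and hinder virus entry, and the 3 neighbouring genes on chromosome 11 did not move as 1 block. IFITM1 (chromosome 11, 313506 to 315272, plus strand) had 0.0599, 0.237, 0.472 and 0.419 CPM in DKO EZ and 0.198, 0.127, 0.216 and 0.205 CPM in DKO DMSO, against 0.277, 16.1, 14.1 and 32.3 CPM in WT EZ and 1.51, 5.04, 7.2 and 20.2 CPM in WT DMSO. IFITM3 (chromosome 11, 319669 to 327537, minus strand), on the opposite strand, had 24.7, 29.7, 34.1 and 39.8 CPM in DKO EZ and 18.1, 16.4, 20.9 and 30.4 CPM in DKO DMSO, against 64.2, 233, 230.3 and 476 CPM in WT EZ and 50.5, 113, 141 and 328 CPM in WT DMSO. Both followed IFIT1, with a low WT replicate 1, but IFITM1 in WT EZ replicate 1 was inside the DKO range and IFITM3 was above it. IFITM1 fell (log2 −5.54 ± 1.09 in EZ and −5.46 ± 1.14 in DMSO), as did IFITM3 (−2.96 ± 0.58 and −2.88 ± 0.58).

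IFITM2, described here after its values were seen, had 1.02, 0.947, 0.767 and 1.22 CPM in DKO EZ and 1.04, 0.255, 0.361 and 0.569 CPM in DKO DMSO, against 10.7, 10.6, 10.7 and 20.1 CPM in WT EZ and 6.27, 7.12, 6.21 and 14.3 CPM in WT DMSO. In WT EZ it was as high in replicate 1 as in replicates 2 and 3, where IFITM1 was more than 50-fold lower in replicate 1, and it was the 1 member that was lower in DKO with no drop in that library. It averaged 0.987 ± 0.186 CPM in DKO EZ and 13 ± 4.71 CPM in WT EZ (SD, n = 4 each), and its log2 fold changes of −3.71 ± 0.39 (adjusted p = 3.01e-06) in EZ and −3.95 ± 0.40 (adjusted p = 2.3e-06) in DMSO had the smallest p-values of the genes that fell. IFITM1 and IFITM2 share exon sequence on the same strand, and 32% and 34.1% of their 50-base words occur in other annotated transcripts (17.4% for IFITM3), so part of their reads may have been divided between them.

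**Figure D4:**
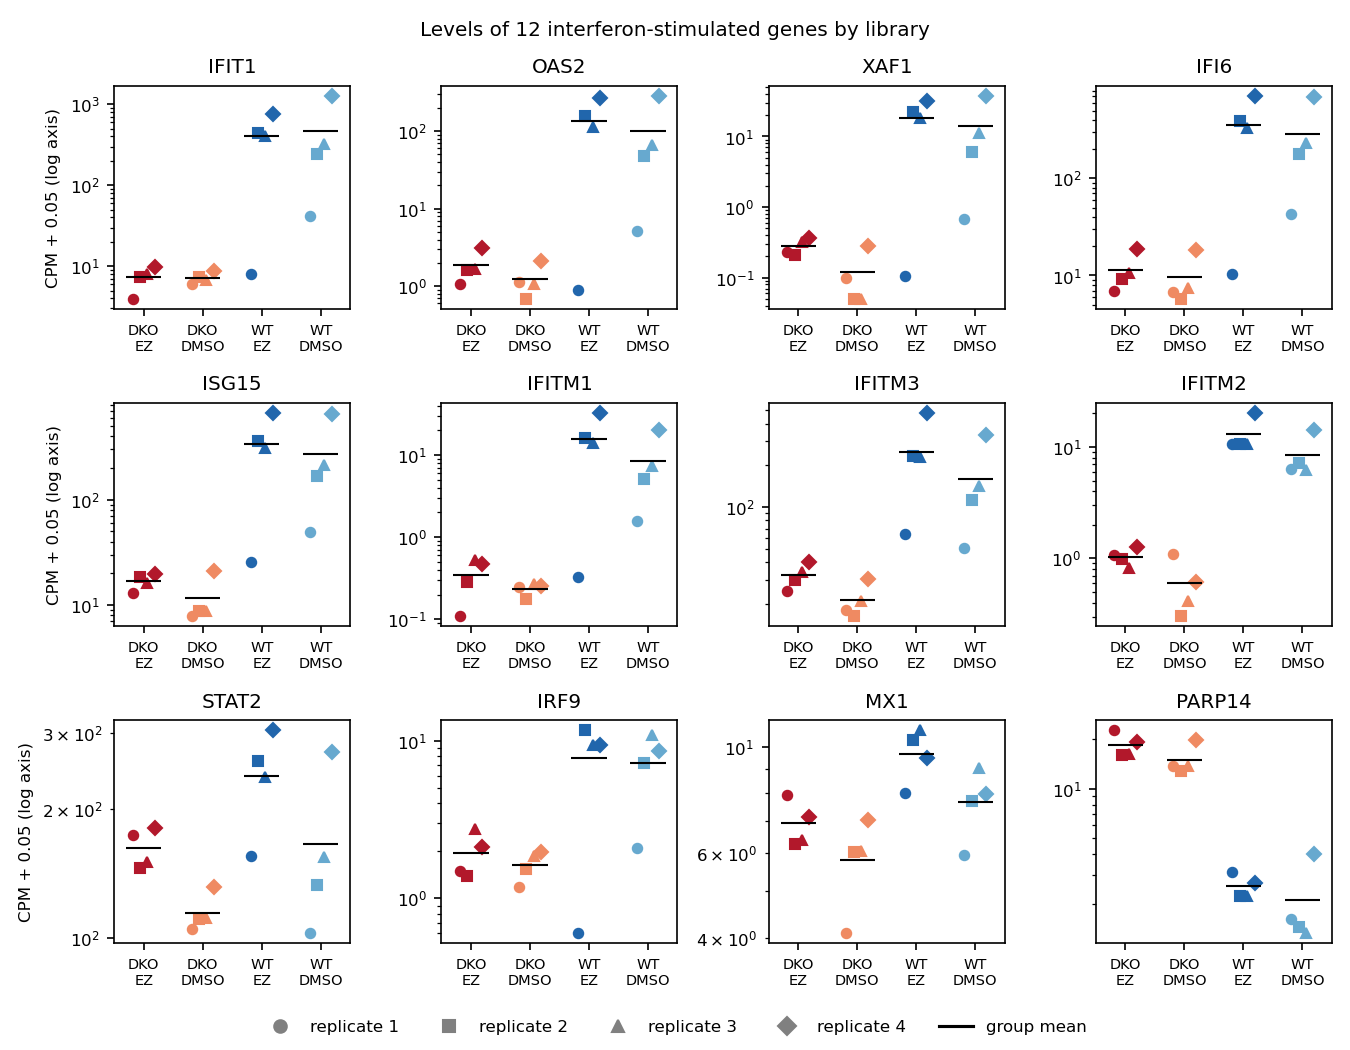
CPM plus 0.05 of 12 of the genes on a log axis, by group (DKO EZ, DKO DMSO, WT EZ, WT DMSO) with each replicate as its own symbol and the group mean as a line. Replicate 1 (circles) falls furthest from the other WT libraries of its treatment for IFIT1, OAS2, XAF1, IFI6, ISG15, IFITM1, IFITM3 and IRF9. For STAT2 it stands at 0.58-fold of their mean in EZ and 0.55-fold in DMSO. It is closer for MX1 (0.79 and 0.72), IFITM2 (0.78 and 0.68) and PARP14 (1.31 and 0.71).

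The MX proteins are dynamin-like GTPases that trap viral components, and MX1 is widely used as a marker of interferon response. MX1 (chromosome 21, 41420304 to 41459214, plus strand) had 7.9, 6.23, 6.34 and 7.09 CPM in DKO EZ and 4.05, 5.99, 6.03 and 7.0 CPM in DKO DMSO, against 7.98, 10.3, 10.8 and 9.45 CPM in WT EZ and 5.9, 7.67, 9.0 and 7.93 CPM in WT DMSO. Its values spanned 1.83-fold in WT, the smallest spread of the 41 genes above 0 in every WT library, beside a median of 19.0-fold for these genes and 2.18-fold for all genes. MX1 did not pass in EZ (−0.48 ± 0.18, adjusted p = 0.0741) or in DMSO (−0.40 ± 0.18, adjusted p = 0.151), although its EZ libraries did not overlap. Its neighbour MX2 ran from 0.180 to 1.04 CPM in DKO and from 0 in WT EZ replicate 1 to 17.4 CPM in WT DMSO replicate 4. MX2 passed in EZ (−4.74 ± 1.24, adjusted p = 0.0139) but not in DMSO (−3.11 ± 1.10, adjusted p = 0.0651), and the difference between the treatments did not pass.

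Among the proteins that sense RNA, EIF2AK2 (chromosome 2, 37099210 to 37157065, minus strand), the kinase PKR that halts translation, had 112, 148, 149.5 and 159 CPM in DKO EZ and 137, 132, 134 and 132 CPM in DKO DMSO, against 123, 275, 265 and 295 CPM in WT EZ and 147, 233, 236 and 372 CPM in WT DMSO. EIF2AK2 was thus high in every library, and it fell (log2 −0.75 ± 0.26 in EZ and −0.89 ± 0.26 in DMSO), both lost without WT replicate 4 of that treatment (adjusted p = 0.166 and 0.115). IFIH1, the sensor MDA5 of long double-stranded RNA, ran from 15.5 to 32.1 CPM in DKO and 26.3 to 194 CPM in WT and fell (log2 −2.04 ± 0.54 in EZ and −2.13 ± 0.54 in DMSO). The helicase gene DDX60 fell (log2 −1.78 ± 0.51 and −2.31 ± 0.52).

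ISG15 is a small ubiquitin-like protein that UBE2L6 and HERC5 attach to other proteins and USP18 removes. ISG15 (chromosome 1, 1001138 to 1014540, plus strand) had 13.1, 18.5, 16.3 and 19.8 CPM in DKO EZ and 7.85, 8.83, 8.7 and 20.9 CPM in DKO DMSO, against 25.3, 361, 312 and 664 CPM in WT EZ and 49, 167, 214 and 657 CPM in WT DMSO. No DKO library overlapped a WT library of the same treatment, and ISG15 fell (log2 −4.33 ± 0.90 in EZ and −4.54 ± 0.91 in DMSO). Per kilobase of exon it averaged 18 CPM in DKO EZ and 362 in WT EZ, second to IFI6 among the 42 genes in WT.

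The enzymes of the ISG15 pathway had smaller log2 fold changes than ISG15. UBE2L6, named after its values were seen, had 19.6, 15.1, 15.9 and 19.5 CPM in DKO EZ and 11.8, 10.3, 11.8 and 13.6 CPM in DKO DMSO, against 7.81, 16.5, 15.5 and 35.3 CPM in WT EZ and 2.98, 4.85, 6.62 and 27.9 CPM in WT DMSO. Its log2 fold changes were near 0, at −0.10 ± 0.56 (adjusted p = 0.928) in EZ and 0.17 ± 0.56 (adjusted p = 0.882) in DMSO. WT DMSO replicates 1 to 3 lay below every DKO DMSO library and replicate 4 above them. Without WT DMSO replicate 4 UBE2L6 was called higher in DKO in DMSO. HERC5, the human ligase, did not pass (−1.13 ± 0.45, adjusted p = 0.0915 in EZ and −1.10 ± 0.45, adjusted p = 0.108 in DMSO). HERC6 fell (log2 −1.29 ± 0.34 in EZ and −1.13 ± 0.34 in DMSO). USP18, which also restrains the interferon receptor, passed in EZ (−1.13 ± 0.37, adjusted p = 0.0414) but not in DMSO (−0.81 ± 0.37, adjusted p = 0.149), and 23.4% of its 50-base words occur in other transcripts, mainly USP41.

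PARP14 was the exception of the set. PARP14 (chromosome 3, 122680618 to 122730840, plus strand), an ADP-ribosyltransferase, had 22.6, 16, 16.3 and 19 CPM in DKO EZ and 13.6, 12.7, 13.7 and 19.8 CPM in DKO DMSO, against 3.05, 2.17, 2.16 and 2.63 CPM in WT EZ and 1.57, 1.39, 1.28 and 3.94 CPM in WT DMSO. Every DKO library exceeded every WT library, with the lowest DKO value at 12.7 CPM and the highest WT value at 3.94 CPM. PARP14 averaged 18.5 ± 3.08 CPM in DKO EZ and 2.5 ± 0.423 CPM in WT EZ (SD, n = 4 each), and its log2 fold change was 2.89 ± 0.30 (adjusted p = 3.01e-06) in EZ and 2.87 ± 0.30 (adjusted p = 3.35e-06) in DMSO. Its neighbours PARP9 and DTX3L, whose products form a complex and whose genes overlap on opposite strands, had negative log2 fold changes. DTX3L, the most abundant per length of the 3, had 131, 175, 168 and 219 CPM in DKO EZ and 116, 122, 129 and 172 CPM in DKO DMSO, against 159, 355, 318 and 412 CPM in WT EZ and 128, 206, 209 and 410.1 CPM in WT DMSO. DTX3L did not pass (−0.84 ± 0.32, adjusted p = 0.0737 in EZ and −0.82 ± 0.32, adjusted p = 0.0867 in DMSO), and PARP9 passed in EZ (−1.35 ± 0.44, adjusted p = 0.0445) and narrowly missed in DMSO (−1.34 ± 0.44, adjusted p = 0.0501).

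Of the antiviral enzymes, RSAD2 (chromosome 2, 6865806 to 6898239, plus strand), viperin, which makes a chain-terminating nucleotide, had 4.19, 6.63, 5.55 and 6.86 CPM in DKO EZ and 3.65, 4.84, 5.23 and 7.03 CPM in DKO DMSO, against 5.32, 118, 93.4 and 185 CPM in WT EZ and 5.38, 41.7, 57.9 and 335 CPM in WT DMSO. WT EZ replicate 1 and WT DMSO replicate 1 were both inside the DKO range, and RSAD2 fell (log2 −4.11 ± 1.10 in EZ and −4.39 ± 1.11 in DMSO). CMPK2, a mitochondrial nucleotide kinase gene that overlaps RSAD2 on the other strand, had log2 fold changes of −2.02 ± 0.75 (adjusted p = 0.0757) and −2.19 ± 0.76 (adjusted p = 0.0605). The exonuclease gene ISG20 had 14, 9.15, 12.2 and 13.5 CPM in DKO EZ and 13.3, 12.4, 15.4 and 21.1 CPM in DKO DMSO, against 11.8, 17, 15.3 and 21.1 CPM in WT EZ and 10.5, 15.3, 20.3 and 35.2 CPM in WT DMSO. Its groups overlapped, and it did not pass in EZ (−0.41 ± 0.29) or DMSO (−0.38 ± 0.29).

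Genes tied to mitochondria and cell survival held the largest change. XAF1 (chromosome 17, 6755447 to 6775647, plus strand), an antagonist of the apoptosis inhibitor XIAP, had 0.180, 0.158, 0.266 and 0.315 CPM in DKO EZ and 0.0494, 0, 0 and 0.227 CPM in DKO DMSO, against 0.0554, 22.1, 18.1 and 31.6 CPM in WT EZ and 0.627, 6.03, 11.3 and 37.2 CPM in WT DMSO. These are 1, 0, 0 and 10 counts in the DKO DMSO libraries, so its log2 fold changes of −6.14 ± 1.41 (adjusted p = 0.00687) in EZ and −7.20 ± 1.56 (adjusted p = 0.00518) in DMSO rest on few reads in DKO. WT EZ replicate 1 held 1 count, where the other WT EZ libraries held 469 to 1034.

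IFI6 (chromosome 1, 27666061 to 27672218, minus strand), an inhibitor of apoptosis, was the most abundant of the 42 per kilobase in WT and had 6.95, 9.23, 10.4 and 18.9 CPM in DKO EZ and 6.76, 5.69, 7.43 and 18.3 CPM in DKO DMSO, against 10.3, 395, 328 and 705 CPM in WT EZ and 43, 179.6, 229 and 688 CPM in WT DMSO. Its WT EZ replicate 1 lay inside the DKO range and its WT DMSO replicate 1 above it, and it fell (log2 −4.96 ± 1.08 in EZ and −4.88 ± 1.08 in DMSO). IFI27 (chromosome 14, 94104836 to 94116698, plus strand), a mitochondrial protein gene, had 1.08, 0.789, 1.5 and 1.74 CPM in DKO EZ and 1.53, 1.91, 1.08 and 1.91 CPM in DKO DMSO, against 0.997, 16.8, 13.9 and 27.1 CPM in WT EZ and 3.87, 8.8, 13.1 and 48.8 CPM in WT DMSO. It followed the same order at lower levels and fell (log2 −3.46 ± 0.86 in EZ and −3.53 ± 0.85 in DMSO).

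SAMD9 and SAMD9L, neighbours on chromosome 7 that restrain growth and poxvirus replication, both fell. SAMD9 had 10.7, 11.8, 13.2 and 23.6 CPM in DKO EZ and 9.68, 9.3, 8.73 and 19.6 CPM in DKO DMSO, against 11.1, 221, 201 and 286 CPM in WT EZ and 25, 109.9, 135 and 452 CPM in WT DMSO. WT replicates 2 to 4 lay at 110 CPM or more and all other libraries at 25.0 CPM or less. SAMD9 fell (log2 −3.59 ± 0.91 in EZ and −3.92 ± 0.93 in DMSO), as did SAMD9L (−3.37 ± 1.00 and −4.30 ± 1.07). BST2 (chromosome 19, 17402939 to 17405648, minus strand), tetherin, which holds budding virus at the membrane, had 1.5, 0.947, 1.3 and 1.36 CPM in DKO EZ and 1.78, 1.36, 1.55 and 1.21 CPM in DKO DMSO, against 0.887, 30.1, 19.4 and 45.5 CPM in WT EZ and 2.98, 9.52, 11.8 and 75.3 CPM in WT DMSO. WT EZ replicate 1 was its lowest library, and BST2 fell (log2 −4.21 ± 1.06 in EZ and −4.09 ± 1.04 in DMSO). The scramblase gene PLSCR1 fell (log2 −2.85 ± 0.90 and −3.05 ± 0.90).

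Among the remaining members IFI44L (chromosome 1, 78619922 to 78646145, plus strand) had 1.86, 2.44, 3.39 and 3.58 CPM in DKO EZ and 3.6, 2.42, 2.35 and 3.8 CPM in DKO DMSO, against 1.66, 106, 98.3 and 158 CPM in WT EZ and 11, 93.3, 131 and 306 CPM in WT DMSO. Its relative IFI44, next to it, had 16.9, 17.1, 16.9 and 24.9 CPM in DKO EZ and 16.1, 16.1, 14.2 and 24.2 CPM in DKO DMSO, against 10.5, 124, 108 and 175 CPM in WT EZ and 23.1, 73.7, 101 and 246 CPM in WT DMSO. For both genes WT EZ replicate 1 lay below every DKO EZ library, and IFI44L fell (log2 −4.97 ± 1.10 in EZ and −5.47 ± 1.12 in DMSO). IFI44 fell (log2 −2.46 ± 0.72 in EZ and −2.65 ± 0.72 in DMSO). SP110, a nuclear body protein gene, fell (log2 −1.78 ± 0.40 and −1.61 ± 0.40), as did IFI35 (−1.64 ± 0.54 and −2.06 ± 0.55). EPSTI1 was near the detection limit, with 0.111 to 0.811 CPM over all 16 libraries, and did not pass.

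The order of the libraries within WT was shared by most members. In WT EZ replicate 1 was the lowest of its group for 40 of the 42 genes, against 33.0% of all genes, and in WT DMSO for 39, against 27.3%. Replicate 4 was the highest for 38 in WT EZ (24.8%) and 39 in WT DMSO (32.7%), and of DKO DMSO replicate 4 was the highest for 31 (37.4%). Set against the mean of replicates 2 and 3, the median member stood at 0.116-fold in WT EZ replicate 1 and 1.58-fold in replicate 4, and at 0.317-fold in WT DMSO replicate 1 and 3.13-fold in replicate 4. The median of all other genes was 0.965 to 0.985-fold in those 4 libraries. The highest of the 8 WT libraries exceeded the lowest by more than 20-fold for 48.8% of the 41 members above 0 in all, against 1.79% of all genes. In the 8 DKO libraries this held for 0 of 41 members, and their median spread was 2.31-fold, beside 2.08-fold for all genes.

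After the group means were subtracted, the members whose 16 values ran most like those of IFIT1 were OAS2 (Pearson r = 0.989), IFI44L (0.987), IFI44 (0.985) and OASL (0.982). For these genes r was 0.999, 0.994, 0.997 and 0.9945 in the 8 WT libraries alone. In the 8 DKO libraries alone it was 0.714, 0.714, 0.584 and 0.652. The libraries carry this order jointly, so these values are a description. Over all 16 libraries PARP14 (0.13), IFITM2 (0.37) and MX1 (0.49) were the least like IFIT1.

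The drug was compared with DMSO in each genotype, which asks whether blocking the androgen receptor changes these genes. In the fit without a replicate block 0 of 42 passed in DKO, against 1.48% of all genes, and 0 of 42 in WT, against 3.32%. At an unadjusted p under 0.05 there was 1 gene in each genotype, and DESeq2, likewise without a block, gave 0 in both. The medians were 0.25 in DKO and 0.16 in WT. EZ and DMSO libraries of the same number deviated together within each genotype. Within a number, 27 to 31 of the 42 genes were higher in EZ in each of the 4 DKO pairs, against 49.4% to 52.8% of all genes. In WT 41 and 39 genes were higher in EZ in replicates 2 and 3, whereas 29 were lower in EZ in both replicate 1 and replicate 4, and of all genes 48.5% to 51% were higher in EZ in the 4 WT pairs. The direction in WT thus differed between replicates.

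**Figure D5:**
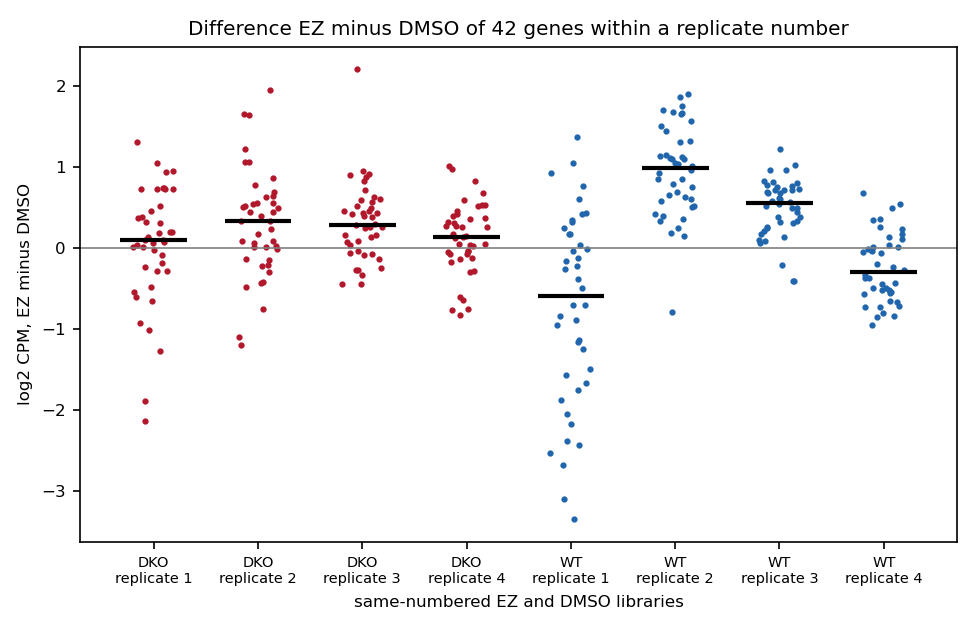
Difference in log2 CPM, EZ minus DMSO, of each of the 42 genes (points) between libraries of the same replicate number, with the median as a line. The DKO medians lie between 0.10 and 0.33, and the WT medians at −0.60, 0.98, 0.55 and −0.30 in replicates 1 to 4.

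With the replicate number as a block within genotype, 5 genes rose with the drug in DKO (4.63% of all genes) and 6 in WT (7.67%), and 0 fell. IFITM3 rose by 0.60 ± 0.11 in DKO (adjusted p = 0.00888) and 0.66 ± 0.11 in WT (adjusted p = 0.00294) by edgeR. STAT2 rose by 0.50 ± 0.11 (0.0171) and 0.59 ± 0.11 (adjusted p = 0.0054), and IFITM2 by 0.92 ± 0.25 (0.0427) and 0.65 ± 0.17 (adjusted p = 0.025). The other called genes were IFI35 and DDX60 in DKO, and UBE2L6, PARP9 and DTX3L in WT. Of these UBE2L6 rose by 1.16 ± 0.19, the largest change among the 11 calls. In this fit the interaction was past the threshold for 0 of the 42 genes (0.179% of all genes), so none of these increases was shown to differ between the genotypes.

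Genes upstream of the 42, from a list chosen with these results known, were read beside them. Of 11 interferon genes 0 were abundant enough to test and 4 had 0 counts in all 16 libraries. IFNB1, interferon beta, had 1, 0, 0 and 1 counts in DKO EZ and 1, 1, 3 and 0 in DKO DMSO, against 0, 6, 11 and 20 in WT EZ and 0, 5, 2 and 20 in WT DMSO. IFNL3, a type III interferon, had 0, 0, 0 and 0 counts in DKO EZ and 0, 0, 0 and 0 in DKO DMSO, against 0, 6, 9 and 16 in WT EZ and 1, 1, 4 and 9 in WT DMSO. These 2 genes, described after their counts were seen, were counted mainly in WT replicates 2 to 4. IFNK, with 18 counts in DKO EZ and 9 in DKO DMSO, against 18 in WT EZ and 11 in WT DMSO, did not follow this order, and IFNL1 had 19 counts in DKO EZ and 14 in DKO DMSO, against 44 in WT EZ and 35 in WT DMSO. The summed level of the 11 genes overlapped between the genotypes, at 0.147 to 1.2 CPM in DKO and 0.366 to 2.32 CPM in WT. A count of 0 allows up to 3 counts in a library, and such limits cover counting error only. Of 5 receptor genes tested IFNAR1 fell (log2 −0.34 ± 0.10 in EZ and −0.52 ± 0.10 in DMSO).

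Among the kinase and STAT genes, JAK2 fell (log2 −0.90 ± 0.19 in EZ and −1.06 ± 0.19 in DMSO), as did STAT3 (−0.63 ± 0.13 and −0.64 ± 0.13). JAK1, the kinase of all interferon receptors, did not pass and stood at 14.8 to 31.8 CPM in DKO and 17.8 to 31.4 CPM in WT. SOCS3, an inhibitor of cytokine signalling, was the 1 of 5 inhibitors that changed and rose by 3.73 ± 0.46 in EZ and 3.40 ± 0.45 in DMSO. It held few counts in WT, at 13 in WT EZ and 17 in WT DMSO, against 193 in DKO EZ and 223 in DKO DMSO.

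Of 9 sensor and adaptor genes tested 4 fell in each treatment, against 11.4% of all genes in EZ and 9.70% in DMSO. RIGI, MAVS and ADAR fell in both, IKBKE in EZ alone and TBK1 in DMSO alone. RIGI, the sensor of short viral RNA, had 19.1, 24.2, 21.9 and 32.4 CPM in DKO EZ and 23.1, 24.3, 23.2 and 31.8 CPM in DKO DMSO, against 22.5, 313, 293 and 453 CPM in WT EZ and 44.9, 184, 217 and 586 CPM in WT DMSO. It fell (log2 −3.47 ± 0.79 in EZ and −3.33 ± 0.78 in DMSO), and WT EZ replicate 1 was inside the DKO range. MAVS, the adaptor below it, fell (log2 −0.39 ± 0.10 and −0.50 ± 0.10), with 188 to 280 CPM in DKO and 287.5 to 347 CPM in WT, and WT replicates 1 lay within the range of the other WT libraries of their treatment. Of 31 other interferon-induced genes 19 fell (11.4% of all genes) and PSMB8 rose (9.29%) in EZ, and 16 fell in DMSO (9.70%). Their medians were −1.05 in both, beside −0.01 in EZ and −0.06 in DMSO over all genes. CXCL10, a chemokine gene, fell (log2 −5.41 ± 1.11 in EZ and −4.32 ± 0.98 in DMSO), as did TRIM22, an antiviral ubiquitin ligase gene (−3.99 ± 0.88 and −4.19 ± 0.90). The change of CXCL10 rests on few reads, with 9 counts in DKO EZ and 20 in DKO DMSO, against 398 in WT EZ and 390 in WT DMSO. RNF213 was the 1 gene of the list that rose with EZ in DKO.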

How the data were processed

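Each of the 16 files deposited by the authors holds unnormalized counts per Ensembl gene as whole numbers. STAR 2.7.3a and GRCh38 are named in the submitters' processing notes. How reads were assigned to genes, and with which strand setting, is not given in the sources used here, so reads of overlapping or similar genes may be divided. Per the labels, total RNA was depleted of ribosomal RNA.

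Counts were analysed with edgeR 4.0.16 (R 4.3.3), with filterByExpr (minimum count 10, total 15), TMM scaling, 1 mean per group over 16 libraries, quasi-likelihood F-tests of 5 contrasts and Benjamini-Hochberg adjustment over 21810 genes at 0.05. Changes are log2 fold change ± SE, levels are CPM on scaled library sizes, and library means use a prior count of 2. DESeq2 1.42.0 was an alternative. On simulated counts, drawn with the same dispersion for every gene and library, the fit was tested for known changes. The members spanned a median of 19-fold in WT and 2.31-fold in DKO, an unequal spread that the simulation does not cover. The biological coefficient of variation was 28.0%. Counts of replicates differed beyond sampling noise, so none was merged, and p-values reflect the spread between these libraries alone, part of which may be technical.

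Members and lists were chosen with earlier results of these data known. Values in each library are given for up to 8 called members per comparison by size of change, the most abundant member per length of each role, and a panel of 10. Coordinates are GENCODE v29 on GRCh38 and promoters RefSeq. Replicate numbers paired EZ with DMSO within a genotype (correlations of deviations 0.326 to 0.664) but were not taken to pair the genotypes, where correlations were 0.229 to 0.674 for replicates 1, 3 and 4 but −0.07 and −0.05 for replicate 2. Some results are not reported here.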

Additional observations from a re-analysis of the deposited data

Results flagged for a closer look

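Single libraries lay far from the other 3 of their group, by Dixon's gap test, in 22 of 168 combinations of member and group. Chance alone flags about 5% of such groups. Members moved together between libraries, most in WT, so the combinations are not independent and their count is a description. In DKO EZ replicate 4 was high for IFI44 (24.9 CPM) and DDX60 (34.7 CPM), and replicate 1 was high for HERC5 (19.4 CPM).

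In DKO DMSO the library was replicate 4, which was high for IFIT2 (26.7 CPM), IFI6 (18.3 CPM), ISG15 (20.9 CPM), SAMD9 (19.6 CPM), PARP9 (75.3 CPM), PARP14 (19.8 CPM) and DDX60 (27.7 CPM) and low for HERC5 (9.01 CPM). It was also high in the mean of the 42 genes, at 3.05 log2 CPM, and it was the highest DKO DMSO library for 31 of them, beside 37.4% of all genes.

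IFITM2 was high in WT EZ replicate 4 (20.1 CPM). In WT DMSO replicate 4 was high for IFIT2 (1316 CPM), IFIT3 (646 CPM), IFITM2 (14.3 CPM), MX2 (17.4 CPM), RSAD2 (335 CPM), USP18 (37.7 CPM), SAMD9L (20.4 CPM), PARP14 (3.94 CPM), BST2 (75.3 CPM) and UBE2L6 (27.9 CPM). The WT libraries numbered 1 were not flagged for any gene. Single genes were tested on CPM, a scale on which a low library is hard to flag. The lack of a flag thus does not show that these libraries lay near the other 3 of their group. In log2 CPM, WT EZ replicate 1 stood at 0.80 for IFI44L, against 6.73, 6.62 and 7.30 in the other 3 WT EZ libraries. For IFIT1 it stood at 3.00, against 8.77, 8.66 and 9.58.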

How the results depend on the processing

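The count of genes past the threshold in DKO against WT in EZ was 34 (20.7% of all genes), and it was 18 (7.32%) with no filter on low counts. It was 19 to 38 with single libraries left out, with 19 without WT EZ replicate 4, 21 without DKO EZ replicate 1 and 22 without DKO EZ replicate 2 or 3. In DMSO the count was 30 (18.6%), 20 with no filter (6.55%) and 20 to 36 with single libraries left out (20 without WT DMSO replicate 4). Of these calls 18 of 34 in EZ and 19 of 30 in DMSO held without any single library. IFITM2 and PARP14 were among them. With a term for the RN7SL1 set the counts were 27 in EZ (22.9% of all genes) and 28 in DMSO (20.4%). With a replicate block across genotypes the counts were 37 in EZ (29.4%) and 32 in DMSO (26.9%), and 0 for both drug comparisons and the interaction, and DESeq2 gave 38 (22.6%) and 36 (20.9%). Across genotypes 5 of 8 pairs correlated best with their own number. For the drug in DKO the count of 0 became 5 with the replicate block within genotype and 1 with only the 2 groups compared. In WT it became 6 with that block and was 0 to 3 with single libraries left out (3 without WT DMSO replicate 4). In the 6 libraries with a high RN7SL1 share alone, a fit chosen after seeing the data, the counts were 3 in EZ and 10 in DMSO and the medians −0.021 and −0.64. In all other alternatives run the medians moved by less than the spread between replicates, which is wide because the WT libraries differ so much. Sizeable moves lie under that bar. Without WT DMSO replicate 4 the median went from −2.77 to −1.92 in DKO against WT in DMSO. For EZ against DMSO in WT it went from 0.16 to 1.05, and for the interaction from 0.04 to −0.75. Scaling by library totals shifted the median of all genes by 0.24 in DKO against WT in EZ and 0.20 in DMSO, and upper-quartile scaling by 0.11 in EZ. Within all alternatives but that set, directions turned for 3 genes, none past the threshold in all 16 libraries. UBE2L6 in EZ was at 0.026 (upper quartile) and 0.13 (library totals), moves of about the shift of all genes, and at 0.11 (replicate block) and 0.19 (RN7SL1 term), and −0.37 to 0.43 with single libraries left out (0.43 without WT EZ replicate 4). In DMSO it was at −0.12 without both WT libraries numbered 1 and −0.11 to 1.36 with single libraries left out (1.36 without WT DMSO replicate 4). With single libraries left out EPSTI1 in DMSO was at −0.36 to 0.00397 and ISG20 in DMSO at −0.56 to 0.077. Within the high-share set log2 fold changes in EZ were above 0 for IFI44 (0.71), IFI44L (0.37), MX2 (5.54, no bound, since its WT library held 0 counts), OAS2 (0.63), OAS3 (1.49), STAT2 (0.047), IRF9 (1.33), RSAD2 (0.027), XAF1 (1.51), USP18 (0.092), CMPK2 (0.49), SAMD9 (0.018), SAMD9L (1.26), EPSTI1 (0.62), PARP9 (0.023), BST2 (0.49), UBE2L6 (1.16), PLSCR1 (1.37) and EIF2AK2 (0.098), and in DMSO for ISG20 (0.32), MX2 (0.50), STAT2 (0.098), HERC5 (0.66), CMPK2 (0.58) and EPSTI1 (0.47), with adjusted p of 0.0755 to 0.971. The causes were not tested. Depth limits XAF1, IFITM1, MX2, EPSTI1 and CXCL10, whose DKO libraries held few counts, SOCS3, whose WT libraries did, and the interferon genes.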
